A study of Mus musculus with 10 samples.

Results

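Cell cycle and DNA replication genes were measured in tissue of the developing inner ear (periotic tissue) from mouse embryos at embryonic day 12.5. The genes were chosen by name, 44 in all: 14 that license or carry out DNA replication, 6 that control G1 and the entry into S phase, and 24 of mitosis. For each gene, 1 array probe set was read, that of highest mean among probe sets annotated with this symbol alone. In this way 43 of the 44 were found among 19938 genes, and Ccnb1 was not analysed here. The study measured 10 arrays, each with the otic vesicle and the surrounding mesenchyme of 1 embryo, left and right sides pooled. The 5 mutants were conditional knockouts of the T-box transcription factor gene Tbx1 made with T-Cre, which the promoter of the T (brachyury) gene drives in nascent mesoderm, and the 5 controls were Tbx1 heterozygotes that carried T-Cre as well. Controls therefore had a reduced Tbx1 dose and the same recombinase, and the otic epithelium, which derives from ectoderm, lies outside the lineage that T-Cre marks.

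Cells license replication in G1, when Cdc6 and Cdt1 load the MCM helicase, a ring of Mcm2 to Mcm7, onto origins. D-type cyclins and then E-type cyclins drive the kinases that free E2F transcription factors, which turn on the genes of S phase. Cyclin A2, the B-type cyclins and Cdk1 then carry the cell into mitosis, where the spindle checkpoint holds anaphase until Cdc20 activates the anaphase-promoting complex. Transcripts of the replication and mitosis genes are abundant in cycling cells and fall when cells leave the cycle, so in a mixed tissue their level follows the share of cycling cells and the phase these are in. In such bulk tissue, fewer cycling cells and less RNA per cycling cell cannot be told apart.

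The promoters of the 2 larger groups differ in the sequences they carry, and 5 of them are printed below as examples, 3 of mitosis genes and then 2 of replication genes. RefSeq promoter windows of 250 bases before to 50 bases after the start site (GRCm38.p6) were matched for 33 of the 44 genes, 35 windows in all. Windows of Mcm4, Gins1, Gins2, Ccnd1, Ccnd2, Ccne2, Ccna2, Aurkb, Kif20a, Foxm1 and Tpx2 were not used here. The matched windows were searched on both strands for the cell cycle gene homology region (CHR, searched as TTTGAA or TTCGAA), which the repressor and activator complexes of late cell cycle genes bind, for the CCAAT box (CCAAT), which binds NF-Y, and for an E2F site (searched as TTTCCCGC or as TTTGGCGC or as TTTGCCGC or as TTTCGCGC). In 1 window of the members letters of different motifs overlapped. Stretches before the start site follow, all printed 5′ to 3′ on the strand of the gene, with every match in capitals. Matches on the other strand read as their reverse complement, and E2F matches that overlap each other run together. The stretches are chr10:69352913-69353052 for Cdk1, chr11:99024200-99024299 for Top2a, chr4:118437344-118437413 for Cdc20 and chr1:128359706-128359825 for Mcm6, all on the minus strand, and chr8:75109349-75109449 on the plus strand for Mcm5.
Cdk1: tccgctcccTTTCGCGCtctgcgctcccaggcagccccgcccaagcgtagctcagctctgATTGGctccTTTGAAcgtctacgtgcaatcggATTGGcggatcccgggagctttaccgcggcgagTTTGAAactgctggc
Top2a: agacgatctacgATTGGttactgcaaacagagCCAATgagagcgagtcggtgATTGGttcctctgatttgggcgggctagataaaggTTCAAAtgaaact
Cdc20: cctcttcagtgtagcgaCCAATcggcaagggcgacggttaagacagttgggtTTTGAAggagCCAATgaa
Mcm6: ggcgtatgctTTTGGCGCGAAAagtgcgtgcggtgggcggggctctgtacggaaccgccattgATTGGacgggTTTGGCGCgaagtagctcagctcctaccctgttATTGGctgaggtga
Mcm5: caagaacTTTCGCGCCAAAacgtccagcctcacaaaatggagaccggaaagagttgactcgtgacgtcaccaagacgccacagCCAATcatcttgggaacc

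CHR letters were found in 14 of the 19 mitosis windows (73.7%), in 2 of the 12 replication windows (16.7%) and in 19.2% of all 32851 RefSeq windows. E2F letters had the opposite pattern, with 6 of 12 replication windows, 1 of 19 mitosis windows (5.26%, that of Cdk1) and 2.26% of all windows. CCAAT letters were common in both, in 16 of 19 mitosis windows and 9 of 12 replication windows, against 37.4% of all windows. The 4 windows of the G1 and S entry genes held neither CHR nor E2F letters. Median GC content was 58.7% in the mitosis windows, 57.5% in the replication windows and 52.7% in all windows. A match of letters is a description and not a binding site, and these data hold no measurement of binding.

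Tbx1, which checks the labels, was lower in the mutants. Tbx1 read 8.40, 7.96, 7.58, 7.63 and 7.58 on the log2 scale in mutants 1 to 5 and 8.89, 9.01, 8.84, 8.23 and 8.59 in controls 1 to 5, and 4 of the 5 mutants lay below the lowest control. The difference was -0.88 (exact permutation p = 0.0159, n = 5 each), and its limma adjusted p over all probe sets was 0.452, which misses the threshold of 0.05. All 8 measured periotic mesenchyme genes and all 9 otic epithelium genes read above 4.36 in each array. That value, the highest of Y-linked genes in female embryos, is a measure of background. Every measured marker of ganglion neurons, skeletal myoblasts, cartilage, red blood cells, macrophages and blood vessels also read above it in each array. So did 8 of 9 of the hindbrain and neural tube. Of all 19938 genes 16580 did, so reading above this value does not identify the tissue. Mutant 5 stood apart by its hindbrain genes, which averaged 1.40 above their mean over the 10 arrays, against -0.45 to 0.44 in the other arrays. All 43 cell cycle genes read above the background value in every array, as did most genes (16580 of 19938). Means of the 43 ran from 7.76 (Ccne2) to 12.4 (Ccnd2), levels that are not compared between genes because each probe set has its own affinity.

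No cell cycle gene passed the test between mutants and controls. By limma with Benjamini-Hochberg adjustment over 21789 probe sets, 0 of the 43 had an adjusted p under 0.05, and among all 19938 genes 2 did (0.0100%). The smallest adjusted p among the 43 was 0.586, that of Cenpf. At an unadjusted p under 0.05 there were 3 of the 43 (Cdc6 and Cenpf higher, Ccnd1 lower), against 7.82% of all genes (4.70% higher, 3.11% lower), so their share was close to the background. With the replicate number as a block, 5 of the 43 reached that level, against 9.74% of all genes. For 0 of the 43 did the groups separate without overlap, against 1.83% of all genes (1.27% higher, 0.552% lower). The mutant mean was above the control mean for 26 of the 43, against 49.1% of all genes. The median difference over the 43 was 0.027 on the log2 scale, and over all genes it was -0.0021. Centring the arrays on their medians lowers every difference alike, and then 40.9% of all genes were higher with a median of -0.0246; after a further quantile normalization these were 47.9% and -0.0056.

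Some markers of other cell types shared a direction within their list, although 0 of these passed the adjusted test. All 11 ganglion neuron genes had a higher mean in the mutants (median 0.41, 5 at an unadjusted p under 0.05), with list means of -0.31 to 0.55 in the mutants and -0.78 to 0.30 in the controls. All 8 cartilage genes had a lower mean (median -0.46, 5 at an unadjusted p under 0.05), with list means of -0.59 to 0.21 in the mutants and -0.19 to 0.50 in the controls. Of the skeletal myoblast genes 8 of 9 were lower, with list means of -0.34 to 0.32 in the mutants and -0.17 to 0.40 in the controls. Of the red blood cell genes 7 of 7 were lower, with list means of -0.35 to 0.068 in the mutants and -0.30 to 0.78 in the controls. Control 5 had that 0.78 and was the highest array for 6 of the 7 red blood cell genes. The part of these cell types in the differences of the cell cycle genes was not tested.

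The arrays were precise enough to bound these differences. The median standard error of the 43 differences was 0.08, and their 95% intervals reached at most from -0.41 (Ccnd3) to 0.43 (Cdc6), as the plot of differences shows. An interval that holds 0 does not show that a gene was alike in both groups, and 40 of the 43 intervals held it.

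**Figure D1:**
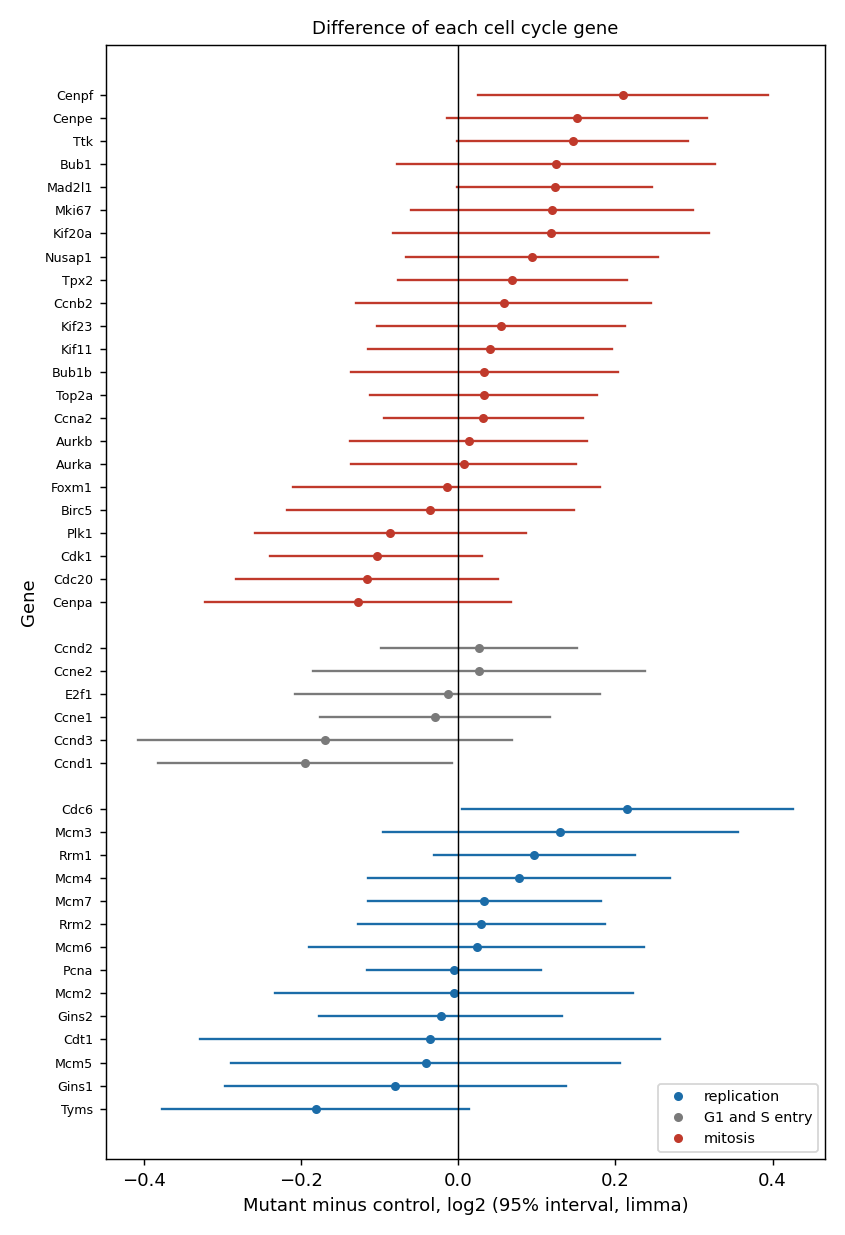
Mutant minus control difference of the log2 signal (x axis) for each of the 43 measured genes (y axis), with its 95% interval from limma, coloured by group. The intervals lie between -0.41 and 0.43, and 3 of the 43 do not hold 0.

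Among the replication genes, 7 of 14 had a higher and 7 a lower mean in the mutants, and 0 passed. Their median difference was 0.0089, and it turned to -0.014 when arrays were centred on their medians and to -0.012 when they were quantile normalized again, while the median of all genes moved from -0.0021 to -0.0246 and to -0.0056. The range ran from -0.18 for Tyms to 0.22 for Cdc6. With all arrays, the licensing factors Cdc6 and Cdt1 did not share a direction. Cdc6 read 8.15, 8.19, 8.13, 8.07 and 7.73 on the log2 scale in mutants 1 to 5 and 7.86, 7.99, 7.94, 7.63 and 7.79 in controls 1 to 5. Cdc6 loads the MCM ring together with Cdt1, and 4 of the 5 mutants lay above the highest control while mutant 5 lay below 4 of the controls. For Cdc6 the difference was 0.22 (SE 0.097, n = 5 each; 95% interval 0.0045 to 0.43), with a limma adjusted p of 0.602. Cdt1 read 9.24, 9.31, 8.93, 8.84 and 8.57 on the log2 scale in mutants 1 to 5 and 8.93, 9.36, 8.99, 8.84 and 8.97 in controls 1 to 5. Cdt1, its partner in licensing, varied more between arrays than any other replication gene, by 0.78 from the highest to the lowest, and 2 mutants lay below the lowest control while 0 lay above the highest. For Cdt1 the difference was -0.036 (SE 0.14, n = 5 each; 95% interval -0.33 to 0.26), with a limma adjusted p of 0.96. Its sign was not settled: the difference was 0.066 without mutant 5, 0.072 in arrays 1 to 3 alone and -0.20 in arrays 4 and 5 alone.

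The subunits of the MCM helicase, which unwinds DNA at the fork, had small mean differences between the groups and varied together between arrays. Mutant minus control differences were -0.0058 for Mcm2, 0.13 for Mcm3, 0.077 for Mcm4, -0.041 for Mcm5, 0.024 for Mcm6 and 0.033 for Mcm7, with standard errors from 0.069 to 0.11. The sign of Mcm6 turned after a further quantile normalization. Mutant 5 was the lowest of the 10 arrays for 5 of the 6 subunits, all but Mcm7, for which mutant 4 was lowest. Mcm5 read 10.48, 10.42, 10.21, 10.15 and 9.85 on the log2 scale in mutants 1 to 5 and 10.27, 10.49, 10.30, 10.01 and 10.23 in controls 1 to 5. Mcm5 was below the lowest control in mutant 5 alone, and 0 mutants exceeded the highest control. The GINS subunits, which join the MCM ring in the active helicase, had differences of -0.08 for Gins1 and -0.022 for Gins2.

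The enzymes that supply nucleotides were split. Rrm1 read 11.45, 11.46, 11.45, 11.34 and 11.24 on the log2 scale in mutants 1 to 5 and 11.22, 11.41, 11.29, 11.18 and 11.35 in controls 1 to 5. Rrm1, the large subunit of ribonucleotide reductase, was above the highest control in 3 mutants, and the difference was 0.097 (SE 0.059, n = 5 each; 95% interval -0.031 to 0.22), with a limma adjusted p of 0.693. Rrm2, the small subunit, had 0.029 ± 0.073 (SE). Tyms read 9.08, 9.21, 8.95, 8.90 and 8.72 on the log2 scale in mutants 1 to 5 and 9.10, 9.34, 9.08, 9.05 and 9.21 in controls 1 to 5. Tyms, which makes thymidylate, was below the lowest control in 3 mutants, and the difference was -0.18 (SE 0.09, n = 5 each; 95% interval -0.38 to 0.014), with a limma adjusted p of 0.635. Pcna, the sliding clamp of the polymerases, had -0.0058 ± 0.051 (SE), and a second probe set under its name had -0.0084. Both probe sets read nearly alike in each array, 11.10 in mutant 2 for both, and 11.24 and 11.22 in mutant 3. The second is therefore not taken as a separate measurement.

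**Figure D2:**
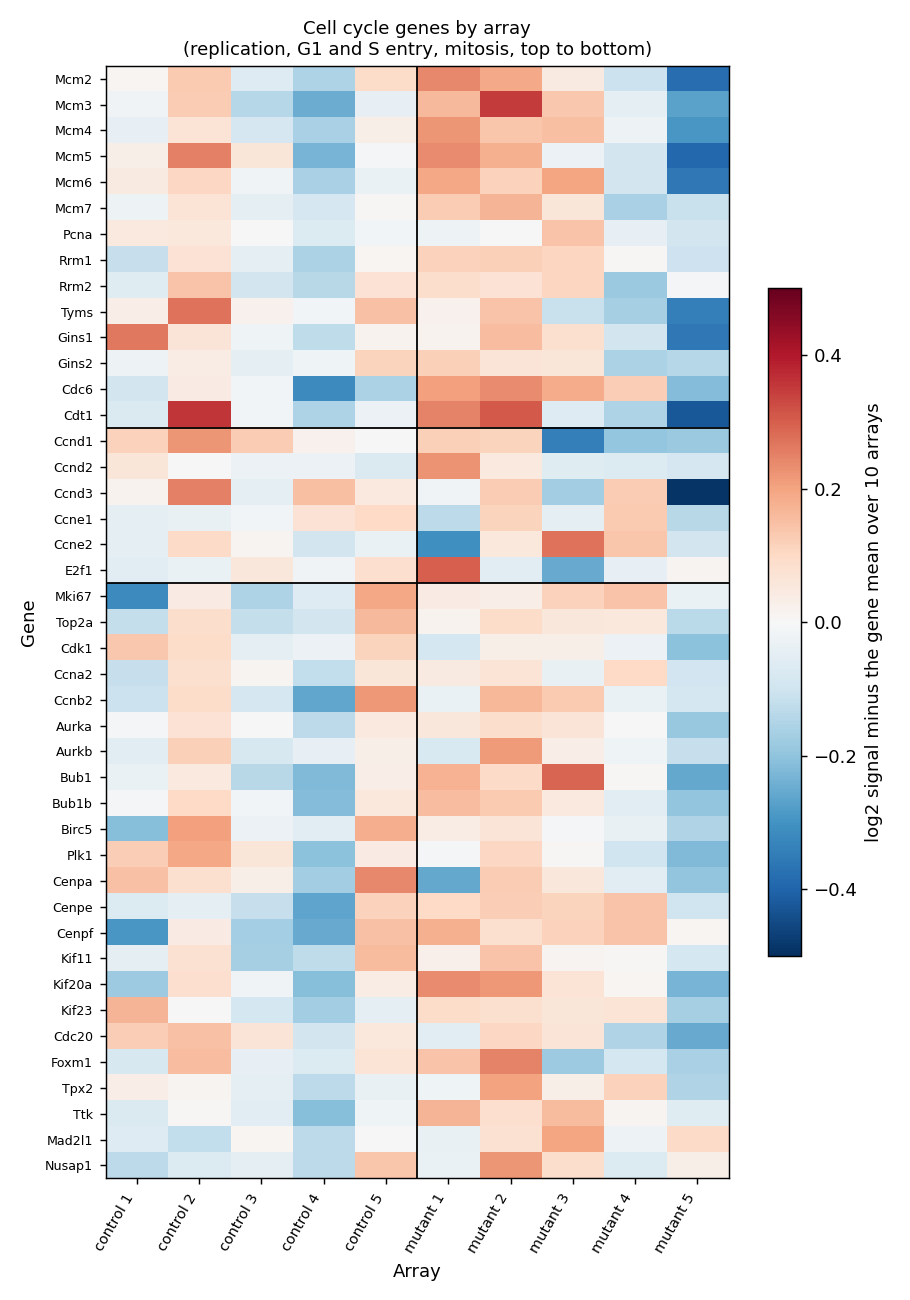
Log2 signal of each of the 43 genes (rows) in each of the 10 arrays (columns), as the deviation from the gene's mean over the arrays, with red above and blue below it. The column of mutant 5 is blue for most genes, and the MCM rows share their pattern over the arrays.

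Of the 6 genes of G1 and S entry, 2 had a higher and 4 a lower mean in the mutants, 0 passed, and the median difference was -0.022. After a further quantile normalization 1 of the 6 was higher. The D-type cyclins differed from each other. Ccnd1 read 11.28, 11.27, 10.81, 10.96 and 10.97 on the log2 scale in mutants 1 to 5 and 11.27, 11.38, 11.28, 11.18 and 11.16 in controls 1 to 5. Ccnd1 was below the lowest control in mutants 3, 4 and 5 and within the control range in mutants 1 and 2. For Ccnd1 the difference was -0.19 (SE 0.087, n = 5 each; 95% interval -0.38 to -0.0078), with a limma adjusted p of 0.602. The mutant mean was 87.4% of the control mean after conversion from log2. The difference of Ccnd1 was -0.19 among the arrays numbered 1 to 3 and -0.20 among those numbered 4 and 5.

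Ccnd2 read 12.63, 12.45, 12.34, 12.33 and 12.32 on the log2 scale in mutants 1 to 5 and 12.46, 12.40, 12.37, 12.37 and 12.33 in controls 1 to 5. Ccnd2, a cyclin expressed in many embryonic progenitors, was highest in mutant 1, and the other arrays lay close together. For Ccnd2 the difference was 0.027 (SE 0.058, n = 5 each; 95% interval -0.098 to 0.15), with a limma adjusted p of 0.925. Ccnd3 read 9.18, 9.32, 9.02, 9.32 and 8.71 on the log2 scale in mutants 1 to 5 and 9.21, 9.45, 9.15, 9.34 and 9.24 in controls 1 to 5. Ccnd3, the third D-type cyclin, was below the lowest control in mutants 3 and 5, and mutant 5 was the lowest array. For Ccnd3 the difference was -0.17 (SE 0.11, n = 5 each; 95% interval -0.41 to 0.069), with a limma adjusted p of 0.707, and without mutant 5 the difference was -0.068.

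The E-type cyclins, which start S phase with Cdk2, and E2f1 had mutants on both sides of the control range. Ccne1 read 9.45, 9.69, 9.53, 9.71 and 9.44 on the log2 scale in mutants 1 to 5 and 9.53, 9.54, 9.56, 9.65 and 9.68 in controls 1 to 5. Ccne2 read 7.45, 7.81, 8.03, 7.90 and 7.67 on the log2 scale in mutants 1 to 5 and 7.71, 7.85, 7.77, 7.67 and 7.72 in controls 1 to 5. For each, 2 mutants lay above the highest control and at least 1 below the lowest, with differences of -0.03 (SE 0.068) for Ccne1 and 0.027 (SE 0.098) for Ccne2. E2f1 read 8.44, 8.09, 7.89, 8.10 and 8.16 on the log2 scale in mutants 1 to 5 and 8.09, 8.11, 8.20, 8.12 and 8.23 in controls 1 to 5. E2f1, a transcription factor that activates S phase genes, was highest in mutant 1 and lowest in mutant 3, and the difference was -0.013 (SE 0.09, n = 5 each; 95% interval -0.21 to 0.18), with a limma adjusted p of 0.981. For all 6 genes of G1 and S entry the SD among the mutants exceeded that among the controls, with medians of 0.20 and 0.069. The same held for all 14 replication genes, for 13 of 23 mitosis genes and for 11072 of 19938 genes.

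**Figure D3:**
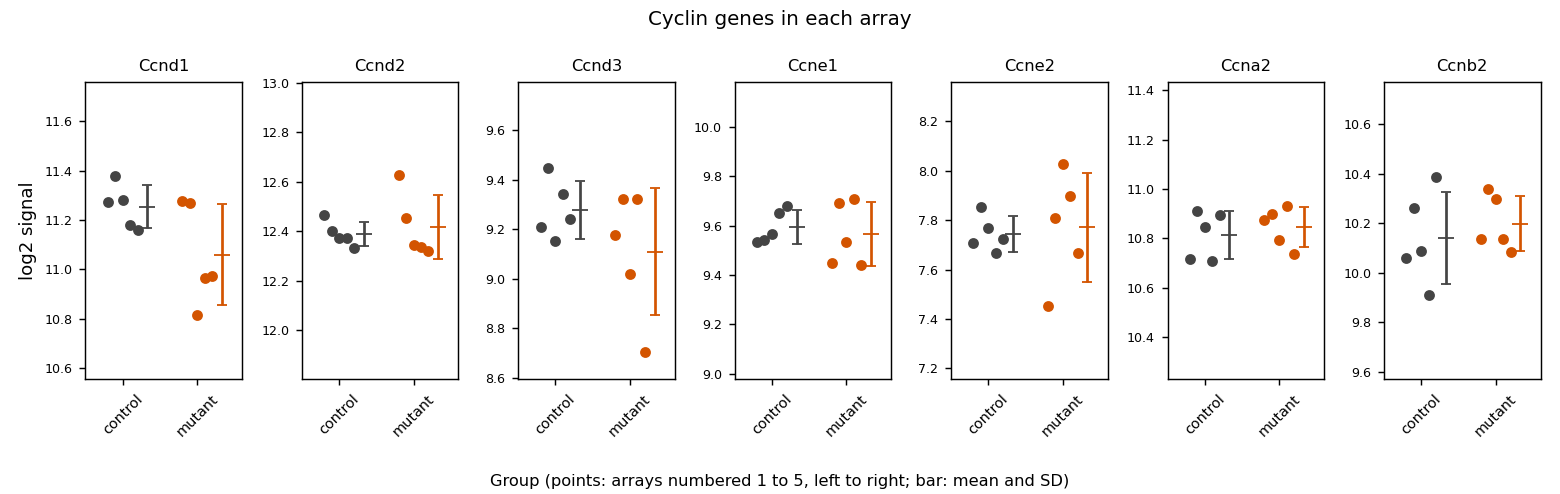
Log2 signal of 7 cyclin genes in each of the 5 control and 5 mutant arrays, numbered 1 to 5 from left to right, with the mean and SD of each group beside them. Every panel spans the same number of log2 units; mutants 3 to 5 lie below all controls for Ccnd1, and mutant 5 lies lowest for Ccnd3.

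Of the 23 mitosis genes, 17 had a higher and 6 a lower mean in the mutants, 0 passed, and the median difference was 0.040. When arrays were centred on their medians or quantile normalized again, 15 were higher. Cyclins that act with Cdk1 overlapped between the groups. Ccna2 read 10.87, 10.90, 10.80, 10.93 and 10.74 on the log2 scale in mutants 1 to 5 and 10.72, 10.91, 10.84, 10.71 and 10.89 in controls 1 to 5. Ccnb2 read 10.14, 10.34, 10.30, 10.14 and 10.08 on the log2 scale in mutants 1 to 5 and 10.06, 10.26, 10.09, 9.91 and 10.39 in controls 1 to 5. Only mutant 4, for Ccna2, exceeded the highest control, with differences of 0.032 (SE 0.058) and 0.058 (SE 0.087). Cdk1 itself, the kinase of mitotic entry, had -0.10 ± 0.062 (SE) and Foxm1, a transcription factor of mitosis genes, -0.015 ± 0.09. Mki67 read 10.46, 10.45, 10.53, 10.56 and 10.39 on the log2 scale in mutants 1 to 5 and 10.10, 10.46, 10.27, 10.36 and 10.62 in controls 1 to 5. Mki67, a chromosome coat protein used as a marker of cycling cells, was lowest in control 1 and highest in control 5, so that all mutants lay within the control range. For Mki67 the difference was 0.12 (SE 0.083, n = 5 each; 95% interval -0.06 to 0.30), with a limma adjusted p of 0.719.

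Ttk, Mad2l1, Bub1 and Bub1b, which act in the spindle checkpoint, had higher means in the mutants, and 0 of these 4 passed. Mad1l1 and Bub3, which act in it too but belong to the further checkpoint list, had -0.072 ± 0.083 (SE) and 0.0082 ± 0.052 (SE), and were named after their values were seen. Ttk read 8.54, 8.45, 8.53, 8.38 and 8.31 on the log2 scale in mutants 1 to 5 and 8.29, 8.37, 8.31, 8.15 and 8.34 in controls 1 to 5. Ttk, a kinase at the head of the checkpoint, was above the highest control in 4 mutants, and the difference was 0.15 (SE 0.068, n = 5 each; 95% interval -0.002 to 0.29), with a limma adjusted p of 0.617. Mad2l1 read 10.38, 10.49, 10.61, 10.38 and 10.50 on the log2 scale in mutants 1 to 5 and 10.35, 10.29, 10.42, 10.28 and 10.41 in controls 1 to 5. Mad2l1, the checkpoint protein that binds Cdc20, was above the highest control in 3 mutants, and the difference was 0.12 (SE 0.057, n = 5 each; 95% interval -0.0013 to 0.25), with a limma adjusted p of 0.617. Bub1 read 10.06, 9.98, 10.18, 9.89 and 9.63 on the log2 scale in mutants 1 to 5 and 9.85, 9.93, 9.75, 9.67 and 9.92 in controls 1 to 5. Bub1, another checkpoint kinase, was above the highest control in mutants 1, 2 and 3 and below the lowest in mutant 5, and the difference was 0.12 (SE 0.093, n = 5 each; 95% interval -0.078 to 0.33), with a limma adjusted p of 0.741. Bub1b had 0.033 ± 0.079 (SE). Cdc20, which the checkpoint restrains, had -0.12 ± 0.077 (SE).

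Centromere genes ran in different directions. Cenpf read 9.13, 9.03, 9.06, 9.09 and 8.96 on the log2 scale in mutants 1 to 5 and 8.66, 8.99, 8.78, 8.70 and 9.10 in controls 1 to 5. Cenpf, a kinetochore protein of late cycle, had mutants close together at 9.05 ± 0.064 (SD, n = 5) while controls spread at 8.84 ± 0.19 (SD, n = 5), and 1 mutant lay above the highest control. For Cenpf the difference was 0.21 (SE 0.085, n = 5 each; 95% interval 0.025 to 0.39), with a limma adjusted p of 0.586, the smallest p of the 43 genes. Cenpe, a kinesin of the kinetochore, had 0.15 ± 0.076 (SE), and Cenpa, the centromeric histone, -0.13 ± 0.09. The test of neither passed.

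Among the motors and regulators of the spindle, Kif20a varied most between arrays. Kif20a read 9.57, 9.55, 9.40, 9.34 and 9.10 on the log2 scale in mutants 1 to 5 and 9.16, 9.42, 9.32, 9.12 and 9.37 in controls 1 to 5. Kif20a, a kinesin of cytokinesis, was above the highest control in mutants 1 and 2 and below the lowest in mutant 5, and the difference was 0.12 (SE 0.093, n = 5 each; 95% interval -0.083 to 0.32), with a limma adjusted p of 0.748. The rest lay within 0.10 of 0: 0.04 for Kif11 and 0.054 for Kif23, kinesins of spindle and midzone, 0.069 for Tpx2 and 0.094 for Nusap1, which organise microtubules, and 0.0071 for Aurka, 0.013 for Aurkb and -0.087 for Plk1, mitotic kinases. Birc5, a partner of Aurkb, had -0.035, and Top2a, which untangles chromosomes, 0.032. The sign of Aurka and Aurkb turned with the scaling of the arrays. Standard errors of these genes other than Kif20a were 0.066 to 0.085.

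Arrays of 1 group differed from each other by more than the group means did for the replication and mitosis genes. The deviation of each gene from its mean over the 10 arrays, averaged over the 14 replication genes, was 0.14, 0.16, 0.076, -0.085 and -0.25 in mutants 1 to 5 and -0.0013, 0.13, -0.036, -0.15 and 0.014 in controls 1 to 5. For the 23 mitosis genes it was 0.038, 0.12, 0.066, 0.0054 and -0.13 in the mutants and -0.051, 0.065, -0.054, -0.15 and 0.087 in the controls. Mutant 5 and control 4 were the lowest arrays for both lists, and mutant 2 was the highest. The groups overlapped, and the difference of the means was 0.017 for replication and 0.041 for mitosis, below the SD among mutants (0.17 and 0.093) and among controls (0.099 and 0.096). For the 6 genes of G1 and S entry the means were 0.032, 0.067, -0.10, 0.016 and -0.16 in the mutants and 0.0073, 0.083, 0.018, 0.018 and 0.021 in the controls. Their difference of -0.059 was below the SD among mutants, 0.097, and above that among controls, 0.030.

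**Figure D4:**
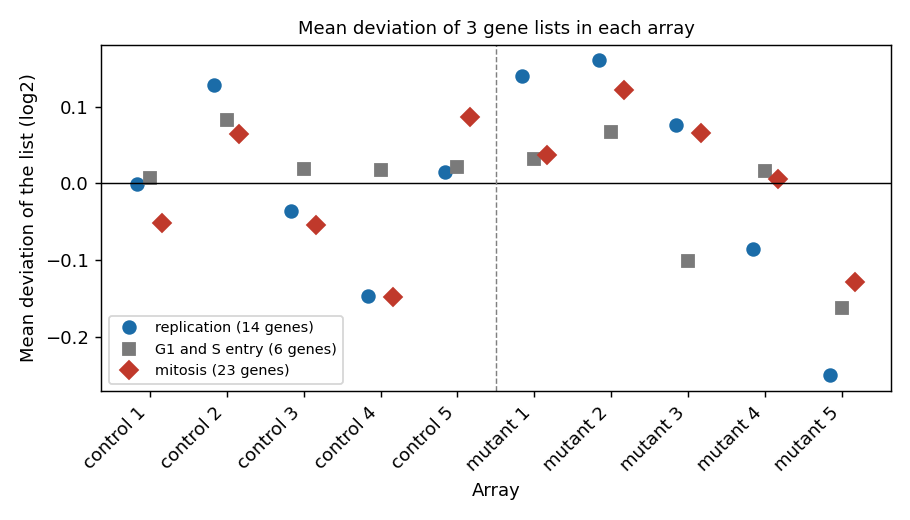
Mean deviation (log2) of the replication, G1 and S entry, and mitosis genes from their means over the 10 arrays, in each control and mutant array. Mutant 5 and control 4 are lowest for replication and mitosis genes, and mutant 2 is highest.

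Mutant 5 was the lowest of the 10 arrays for 9 of the 14 replication genes, 9 of the 23 mitosis genes and 3 of the 6 genes of G1 and S entry, 21 of 43 together. Among all genes, mutant 5 was lowest for 17.3%. Control 4 was lowest for 10 of the 43, among them Cdc6, Rrm1, Ttk, Mad2l1 and Cenpe, and for 1783 of all 19938 genes. Mutant 5 also had the highest hindbrain marker mean, 1.40, and the lowest periotic mesenchyme mean, -0.31, where the other mutants read -0.30 to -0.059 and 0.0005 to 0.085. Control 4 had the next highest hindbrain value, 0.44, and a mesenchyme value of -0.048, close to the -0.041 of control 3. Some other markers differed in sign between mutant 5 and control 4. Cartilage genes averaged -0.59 and 0.35, ganglion neuron genes 0.55 and -0.28, and myoblast genes -0.34 and 0.40. Macrophage genes (-0.35 and -0.083) and blood vessel genes (-0.24 and -0.045) were low in both. Mutant 5 was lowest for 7 of 8 macrophage genes, 5 of 9 myoblast genes, and 6 of 8 each of blood vessel, cartilage and periotic mesenchyme genes. It was lowest for 2 of 9 otic epithelium genes and for 0 of the ganglion neuron, hindbrain and red blood cell genes. The part of tissue makeup in the low values of these arrays was not tested.

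Without mutant 5, 12 of 14 replication genes and 18 of 23 mitosis genes had a higher mean in the mutants, and the median differences were 0.066 and 0.086, against 0.0089 and 0.040 with all arrays. Over all genes 10284 of 19938 were higher without mutant 5, with a median of 0.004. Again 0 of the 43 passed. Differences that moved by over 1.5 times without mutant 5 included 0.21 for Mcm3, -0.12 for Tyms, 0.20 for Bub1 and 0.19 for Kif20a. Leaving out certain other arrays turned the sign of the replication median: it was -0.011, -0.0061 and -0.020 without mutant 1, 2 or 3, and -0.019 without control 4.

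Taken by replicate number, replication and mitosis genes were on average higher in the mutant for numbers 1 to 4 and lower for number 5. For replication genes the mean difference between a mutant and its same-numbered control was 0.14, 0.032, 0.11, 0.061 and -0.26 for numbers 1 to 5. The mutant was higher for 11, 9, 11, 9 and 0 of the 14 genes. For mitosis genes the differences were 0.089, 0.057, 0.12, 0.15 and -0.21, with the mutant higher for 16, 17, 19, 21 and 1 of 23. Mutant 5 was therefore lower than control 5 for all 14 replication genes and for all mitosis genes but Mad2l1. For the MCM subunits the differences were 0.20, 0.066, 0.14, 0.086 and -0.31. The G1 and S entry genes ran otherwise, with 0.025, -0.016, -0.12, -0.0014 and -0.18 and the mutant higher for 3, 2, 1, 2 and 0 of 6. What, if anything, same-numbered embryos shared is not stated. By Xist and Y-linked genes, mutant 1 and control 1 read as male, and both embryos of numbers 2 to 4 as female. At number 5 the mutant read as female and the control as male. The part of sex in the lower values at number 5 was not tested. Over all genes the mean deviation was 0.002 in mutant 5 and -0.0101 in control 5.

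**Figure D5:**
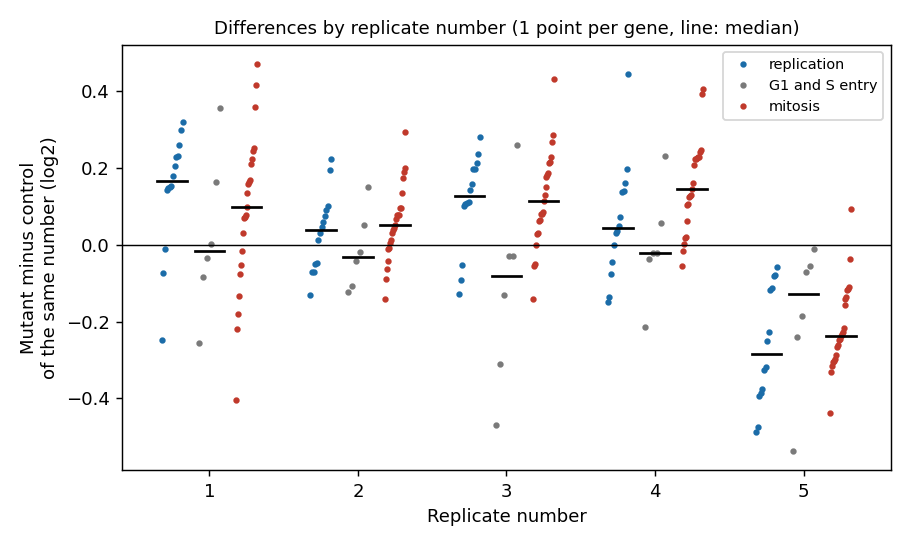
Log2 signal of each gene in a mutant minus that in the control of the same replicate number (x axis, 1 to 5), 1 point per gene and coloured by group, with the median of each group as a line. At number 5 all replication genes and all but 1 mitosis gene lie below 0.

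Arrays numbered 4 and 5 differed from those numbered 1 to 3 in both genotypes by their immediate early genes, which respond to stress and handling. The mean of 8 immediate early genes deviated by 0.47 to 0.79 from its overall mean in arrays 1 to 3 and by -1.12 to -0.90 in arrays 4 and 5. Replication genes were lower there too: their mean deviation was 0.13 in mutants 1 to 3 and -0.17 in mutants 4 and 5, and 0.030 in controls 1 to 3 and -0.066 in controls 4 and 5. In the mutants all 14 replication and all 23 mitosis genes had a lower mean in arrays 4 and 5, and in the controls 13 and 14 did, against 12077 and 10938 of 19938 genes. The part of the immediate early difference in this was not tested. Mutants were higher than controls for 12 of 14 replication genes in arrays 1 to 3 and for 2 of 14 in arrays 4 and 5, with median differences of 0.11 and -0.11. For mitosis genes the counts were 19 and 7 of 23, with medians of 0.085 and -0.038. Over all genes they were 10410 and 9379 of 19938, with medians of 0.0072 and -0.011. Arrays 4 and 5 include mutant 5, the lowest array for 9 of the 14 replication genes. The change of the difference between both sets of arrays, tested after these values were seen with a limma interaction term over all probe sets, passed for 0 of the 43 genes and for 0.00% of all genes. At an unadjusted p under 0.05 it reached 2 of the 43, Gins2 (-0.29) and Mcm2 (-0.35), against 2.53% of all genes.

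Replication and mitosis genes were also set against each other within each array. The mean deviation of replication genes minus that of mitosis genes was 0.10, 0.039, 0.010, -0.091 and -0.12 in mutants 1 to 5, and 0.050, 0.063, 0.018, 0.0021 and -0.072 in controls 1 to 5. In both groups arrays 4 and 5 were the lowest. The mutant mean was -0.012 ± 0.093 (SD, n = 5) and the control mean 0.012 ± 0.053 (SD, n = 5), a difference of -0.024 that is smaller than either SD. Without mutant 5 it was 0.0031.

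Differences were also set beside the promoter motifs, as a description. The 16 measured genes with CHR letters had a median difference of 0.033, with 11 higher, and the 16 without had 0.0088, with 8 higher. For E2F letters the medians were 0.024 over 7 genes and 0.032 over 25. For CCAAT letters they were 0.033 over 24 genes, with 16 higher, and -0.022 over the 8 without, with 3 higher. Mutant 5 was the lowest array for 5 of the 7 genes with E2F letters, Mcm5 and Mcm6 among them, and for 10 of the 25 without. For CHR letters these counts were 7 of 16 with and 8 of 16 without, and for CCAAT letters 12 of 24 and 3 of 8. All of the 7 genes with E2F letters but Cdk1 are replication genes. Mutant 5 was the lowest array for 9 of the 14 replication genes, so the E2F split largely repeats that of the lists. All of the 16 genes with CHR letters but Mcm2 and Mcm7 are mitosis genes, a list with a median difference of 0.040. The CHR split therefore largely repeats the lists too.

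Other genes of the cell cycle, listed by role but with earlier results of these data known, were likewise without a call, 0 of 134 in either direction. Of the 13 genes of origin recognition and firing, 10 were higher, with a median of 0.052. Orc4 (0.19, SE 0.068) and Orc3 (0.14, SE 0.063), subunits of the origin recognition complex, had the smallest p-values. Of the 25 polymerase and fork genes 11 were higher, or 6 after a further quantile normalization, and the median was -0.0056. Tk1 (-0.22, SE 0.099), a thymidine kinase, was below the lowest control in 4 mutants, and Pold1, the catalytic subunit of polymerase delta, had -0.16 (SE 0.087). Without mutant 5 these differences were -0.14 and -0.093.

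Of 54 further mitosis genes, 46 were higher in the mutants, or 40 when the arrays were centred on their medians, with a median of 0.073 against -0.0021 over all genes. After that centring the median was 0.051, against -0.0246 over all genes, of which 40.9% were higher, down from 49.1%. As given above, all 11 ganglion neuron markers were higher too and all 8 cartilage markers lower, and their part was not tested. Smc2, a condensin subunit, had 0.22 (SE 0.064, limma adjusted p 0.569). Mastl, a kinase that protects mitotic phosphorylation, had 0.26 (SE 0.086, limma adjusted p 0.569). For each, 4 of the 5 mutants lay above the highest control. In arrays 4 and 5 alone 30 of the 54 were higher, with a median of 0.011, and in arrays 1 to 3 alone 49 were, with a median of 0.12. Over all genes these counts were 9379 and 10410 of 19938.

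G1 control, exit and checkpoint genes completed the lists. Of 23 genes of G1 control 14 were higher, or 10 after a further quantile normalization, and the median was 0.017, turning to -0.0039. Rb1, which restrains E2F, had 0.23 (SE 0.13), or 0.11 without mutant 5, in which it was highest. Tfdp1, the partner of E2F proteins, had 0.13 (SE 0.078). Of 9 genes of cell cycle exit, most of them inhibitors of cyclin-dependent kinases, 6 were higher, or 5 after either change of scaling, with a median of 0.030. Btg1, an antiproliferative factor, had 0.11 (SE 0.065) and Fzr1, an activator of the anaphase-promoting complex, -0.091 (SE 0.09), or -0.06 without mutant 5. Among 10 checkpoint genes 7 were higher, or 6 after either change of scaling, with a median of 0.055. Chek2 read 7.22, 7.39, 7.27, 7.38 and 7.21 on the log2 scale in mutants 1 to 5 and 7.01, 7.06, 7.09, 7.02 and 7.14 in controls 1 to 5. Chek2, a kinase of the DNA damage response, had groups that did not overlap, as 1 of the 134 genes against 1.83% of all genes, a share below the background. For Chek2 the difference was 0.23 (SE 0.067, n = 5 each; 95% interval 0.082 to 0.37), with a limma adjusted p of 0.569. Chek1, its counterpart at stalled forks, had 0.15 (SE 0.079).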

How the data were processed

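RNA of 10 embryos was hybridised to Affymetrix Mouse Gene ST 1.0 arrays. Per the submitters' processing notes, RMA and Affymetrix Expression Console 1.1 gave the deposited log2 values. Nothing names the scale, which was taken from their range (array medians 6.19 to 6.27). Precision is limited by how many arrays there are, not by depth. The table holds 35557 probe sets, of which the platform annotation names 21789 with 1 symbol, updated by gene id for 21698. Probe sets with several symbols (1621) or not listed (12147) were left out. The genotypes were tested against each other by limma 3.58.1 under R 4.3.3 (lmFit, eBayes with a trend, two-sided), with p-values adjusted by Benjamini-Hochberg over 21789 probe sets at a threshold of 0.05. The labels call the samples biological replicates.

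Named genes are all 43 measured members, of which 19 are given array by array: 7 cyclins, Mki67, E2f1, and per larger list the 3 of smallest p and the 2 of largest SD. Tbx1 and the 2 of smallest p in each further list are also named. The members and lists were chosen with earlier results of these data known. Samples with the same replicate number had positive correlations in every pair, 0.122 to 0.247, against -0.392 to 0.382 between other numbers. The same-number values thus lay within the range of the others. Only 2 mutants correlated best with the control of their own number. The correlations therefore do not show that same-numbered samples belong together, and the numbers were taken as pairs only in an alternative fit. Alternatives also covered the eBayes settings, scaling, a filter on dim probe sets, the probe set rule, single arrays, array numbers and embryo sex. The fit was also checked on simulated data, where it recovered 68 of 100 changes of 0.5 on the log2 scale and 98 of 100 changes of 1.0. There were 11 false calls among 21789 probe sets. Changes as small as those of the 43 members, at most 0.22, were not simulated, so the check does not cover them.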

Additional observations from a re-analysis of the deposited data

Results flagged for a closer look

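Dixon's test of the most distant array marked 6 of 120 groups of 5 values, where chance gives about 6.0. In mutant 5 these were Cdc6 (log2 signal 7.732), Cenpe (8.769) and Kif23 (9.556), each lower than in the other mutants. In control 2 they were Cdt1 (9.357) and the mean deviation of the G1 and S entry genes (0.0826), both higher than in the other controls. In control 1 it was Pold1 (8.549), lower than in the other controls.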

How the results depend on the processing

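Under all 22 alternatives 0 of the 43 members passed, with a smallest limma adjusted p of 0.404 (Ccnd1, replicate block). With the replicate number as a block 2 genes passed over all (0.0100%) and 0 of the 43, and no call changed; at an unadjusted p under 0.05 there were then 5 of the 43 and 9.74% of all genes. The count of genes past the threshold, 2, was 1 with the filter on dim probe sets, 1 in arrays 1 to 3 alone and 0 in arrays 4 and 5 alone, which have fewer samples. The medians of the replication, G1 and S entry and mitosis genes and the replication minus mitosis difference moved by less than the larger of the SDs among mutants and among controls, a lenient bound; for all of these but the mitosis median some moves exceeded the control SD. In arrays 1 to 3 alone and 4 and 5 alone they were 0.106 and -0.111 for replication, -0.0025 and -0.0692 for G1 and S entry, 0.0847 and -0.0384 for mitosis, and 0.0069 and -0.0708 for the replication minus mitosis difference. Without mutants 4 and 5 they were 0.140, -0.0224, 0.104 and 0.0383.

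Signs were stable for 16 of the 43 members, Ccnd1, Cdc6, Tyms, Cenpf, Ttk and Mad2l1 among them, and turned for 27 and for Fzr1 and Tfdp1 of the further lists; with all arrays, no member that turned had a difference beyond 0.13. The cause was not tested. In arrays 1 to 3 alone the turned differences were 0.0454 for Birc5, 0.0118 for Ccne1, -0.0136 for Ccne2, 0.0718 for Cdt1, 0.0086 for E2f1, 0.0581 for Foxm1, 0.0136 for Fzr1, 0.0922 for Gins2, 0.133 for Mcm2, 0.0143 for Mcm5 and 0.007 for Pcna. In arrays 4 and 5 alone they were -0.0546 for Aurka, -0.0621 for Aurkb, -0.0312 for Bub1, -0.0439 for Bub1b, -0.0384 for Ccnb2, -0.0248 for Ccnd2, -0.0583 for Kif11, -0.0216 for Kif20a, -0.0148 for Mcm3, -0.0907 for Mcm4, -0.127 for Mcm6, -0.0974 for Mcm7, -0.0106 for Mki67, -0.0244 for Nusap1, -0.0631 for Rrm2, -0.0432 for Tfdp1 and -0.0771 for Top2a. With arrays centred on their medians they were -0.0154 for Aurka and -0.0093 for Aurkb, and after a further quantile normalization -0.0226 for Aurka, -0.0141 for Aurkb, -0.0032 for Ccne2 and -0.0025 for Mcm6. The mean of all probe sets gave -0.0022 for Top2a, whose second probe set read below background, and sex as a covariate gave -0.011 for Ccne2, 0.0187 for E2f1 and 0.0282 for Mcm2. Without mutants 4 and 5, an alternative chosen after seeing the data, they were 0.015 for Birc5, 0.145 for Cdt1, 0.0629 for Foxm1, 0.0136 for Fzr1, 0.0436 for Gins1, 0.0697 for Gins2, 0.155 for Mcm2, 0.108 for Mcm5 and 0.0369 for Pcna.

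Leaving out 1 array at a time, the differences that turned ranged from -0.0248 to 0.0551 for Aurka, -0.0386 to 0.0445 for Aurkb, -0.0932 to 0.0116 for Birc5, -0.0166 to 0.0863 for Bub1b, -0.0262 to 0.0508 for Ccnd2, -0.0658 to 0.0017 for Ccne1, -0.0376 to 0.106 for Ccne2, -0.117 to 0.0657 for Cdt1, -0.0901 to 0.0479 for E2f1, -0.0792 to 0.0285 for Foxm1, -0.0547 to 0.0142 for Gins2, -0.0661 to 0.0891 for Mcm2, -0.105 to 0.0524 for Mcm5, -0.0225 to 0.116 for Mcm6, -0.0048 to 0.0775 for Mcm7, -0.0418 to 0.0166 for Pcna and -0.002 to 0.0794 for Rrm2.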
